A study of Mus musculus with 15 samples.

Results

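The interferon response and antigen presentation genes are 36 mouse genes, chosen by name from the interferon pathway and from the machinery that displays peptides on MHC class I, and they were followed here through the dorsal forebrain of fetuses exposed to arginine vasopressin (AVP) before birth. They make up 36 of the 53337 genes to which the transcript table was summed. No member passed the threshold in any of the 5 comparisons made (AVP against saline in males, in females and over both sexes, the treatment by sex interaction, and females against males). In males 30 of 34 tested members lay lower after AVP (11.8% lay higher, against 26.4% of all genes tested), and 5 of them had an unadjusted p under 0.05, namely Stat2, Ifnar1, H2-K1, Irf9 and Usp18, a share of 14.7% against 13.5% of all genes tested. In females 18 of 33 tested members lay higher after AVP and 0 had an unadjusted p under 0.05, against 4.51% of all genes tested.

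Type I interferons bind a receptor built from the Ifnar1 and Ifnar2 chains, and interferon gamma binds Ifngr1 with Ifngr2. The bound receptors activate STAT proteins, and a complex that holds Stat2 and Irf9 then enters the nucleus and binds the interferon-stimulated response element in front of antiviral genes such as Isg15 and the Ifit genes. The same signals raise MHC class I chains, the peptide transporter and the immunoproteasome, while Usp18 and the SOCS proteins damp the response. Microglia are the main resident immune cells of the fetal brain.

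Whole dorsal forebrain of C57BL/6J fetuses at embryonic day 18 was profiled by stranded mRNA sequencing. Dams received AVP or saline through gestation from a subcutaneous osmotic minipump, an infusion used to model preeclampsia, so the fetuses were exposed through the mother. There were 4 AVP male, 4 saline male, 3 AVP female and 4 saline female libraries, 15 in all. A further AVP female sample was excluded by the authors for high variance. Replicates within a group are numbered here in the order of deposit. By the study's methods the samples of one sex and treatment came from separate litters, while a male and a female sample of the same treatment can share a litter. The labels do not tie a sample to its litter, so the tests over both sexes, of the interaction and between the sexes treat all samples as independent.

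The values are TPM, a measure that scales each library to a fixed total and corrects each transcript for its length, so the read depth of each library is unknown and no counting interval can be given. The study's methods give read depth only as an average per sample. The libraries held between 14845 and 15897 genes at 1 TPM or more, and mitochondrial transcripts took between 4.36% and 9.36% of TPM, most in saline male 4 (9.36%) and saline female 4 (8.15%). The library labelled saline male 3 carried 266 TPM of Xist, where the other 7 males had at most 1.13 TPM and the females 174 to 294 TPM, and its Eif2s3y stood at 0.0411 TPM against 61.8 to 107 TPM in the other males. Its Ddx3y, Uty and Kdm5d, at 0.110, 0.221 and 0.116 TPM, were also within the female range, so its sex-linked genes read as female. It was kept under its label, so the male differences, intervals and exact tests count it as a saline male. The main counts of members are given again without it. The 8 dorsal forebrain markers summed to between 938 and 1306 TPM and all had a mean of at least 1 TPM, as did all 12 microglial markers, which summed to between 80.7 and 178 TPM. Lymphocyte and neutrophil markers summed to between 2.35 and 19.2 TPM, and 2 of 9 (S100a8 and S100a9) had a mean of at least 1 TPM, while no single value of the other 7 was above 0.480 TPM, the highest being that of the B cell gene Cd79a. Choroid plexus markers summed to between 7.17 and 2273 TPM. They were at 576 TPM or more in AVP male 1, saline males 1 and 2, AVP females 1 and 3 and saline female 2. The other libraries had at most 29.2 TPM, and the part of this in the members' values was not tested. In bulk tissue, fewer cells of a type and less RNA per cell cannot be told apart.

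Promoter sequence was available for 34 of the 36 members (RefSeq, GRCm38.p6), not for Tap2 and Usp18, as windows of 300 bases that begin 250 bases before each transcription start. Both strands were searched for 3 motif cores: GAAANNGAA of the interferon-stimulated response element (ISRE), TTCNNNGAA of the gamma-activated sequence (GAS), to which STAT dimers bind, and GGANNTTCC of the NF-kappaB element. Matches may overlap each other. An ISRE core was present in 13 of 34 members (38.2%) and in 9.76% of the 27025 genes with a window. A GAS match was present in 9 members (26.5%) and in 9.55% of all genes, and an NF-kappaB match in 7 members (20.6%) and in 4.86% of all genes. The ISRE core fell in 6 of 9 antiviral effectors, in both RNA sensors and in 2 of 4 class I chains, but in 0 of 4 receptors. A match describes letters only and is not evidence of binding. The windows of 6 members show the arrangements, each as the 250 bases before the start, 5′ to 3′ along the gene, with matches in capitals. Isg15 was chosen for its run of 3 overlapping ISRE cores followed by an NF-kappaB match, Bst2 for a GAS that runs into 2 overlapping ISRE cores, B2m for an ISRE core close to an NF-kappaB match, Stat2 for an ISRE core on the opposite strand in the member with the smallest p in males, and Irf1 and Socs3 for a GAS alone. Isg15 lies at chr4:156200819-156201068 on the minus strand, Bst2 at chr8:71537473-71537722 on the minus strand, B2m at chr2:122147437-122147686 on the plus strand, Stat2 at chr10:128270248-128270497 on the plus strand, Irf1 at chr11:53769764-53770013 on the plus strand and Socs3 at chr11:117969367-117969616 on the minus strand.
Isg15: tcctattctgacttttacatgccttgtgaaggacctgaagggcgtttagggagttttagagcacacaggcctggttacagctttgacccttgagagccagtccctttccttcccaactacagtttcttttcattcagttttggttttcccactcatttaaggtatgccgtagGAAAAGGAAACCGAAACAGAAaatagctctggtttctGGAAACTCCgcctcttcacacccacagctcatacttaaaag
Bst2: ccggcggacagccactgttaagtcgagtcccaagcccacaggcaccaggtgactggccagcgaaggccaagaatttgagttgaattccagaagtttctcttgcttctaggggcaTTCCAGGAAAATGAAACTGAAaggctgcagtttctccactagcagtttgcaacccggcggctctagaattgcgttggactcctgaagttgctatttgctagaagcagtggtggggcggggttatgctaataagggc
B2m: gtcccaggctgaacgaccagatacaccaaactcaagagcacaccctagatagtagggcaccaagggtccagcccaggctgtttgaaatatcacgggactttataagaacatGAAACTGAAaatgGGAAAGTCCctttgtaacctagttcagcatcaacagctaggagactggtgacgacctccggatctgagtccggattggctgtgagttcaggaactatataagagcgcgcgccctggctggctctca
Stat2: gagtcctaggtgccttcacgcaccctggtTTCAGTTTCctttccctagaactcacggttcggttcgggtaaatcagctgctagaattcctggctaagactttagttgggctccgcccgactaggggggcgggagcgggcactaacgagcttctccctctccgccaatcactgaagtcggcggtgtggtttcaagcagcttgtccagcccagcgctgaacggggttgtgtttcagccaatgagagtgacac
Irf1: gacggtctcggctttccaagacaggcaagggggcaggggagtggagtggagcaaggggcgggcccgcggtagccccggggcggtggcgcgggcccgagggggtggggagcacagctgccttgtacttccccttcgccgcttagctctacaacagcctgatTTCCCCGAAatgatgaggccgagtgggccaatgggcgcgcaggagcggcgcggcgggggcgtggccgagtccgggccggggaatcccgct
Socs3: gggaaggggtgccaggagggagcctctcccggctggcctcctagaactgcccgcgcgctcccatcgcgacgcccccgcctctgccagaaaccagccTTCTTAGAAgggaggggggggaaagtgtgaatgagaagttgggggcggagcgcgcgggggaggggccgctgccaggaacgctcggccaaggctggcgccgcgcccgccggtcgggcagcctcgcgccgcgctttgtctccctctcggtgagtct

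Many members lie side by side in the genome (GENCODE annotation, GRCm38). The class I heavy chains, the transporter genes, tapasin, Psmb8 and Psmb9 lie within the major histocompatibility complex at chr17:33915899-36032855. Ifnar2, Ifnar1 and Ifngr2 lie together at chr16:91372783-91565623, Ifit2, Ifit3 and Ifit1 at chr19:34550694-34650009, and Psme1, Psme2 and Irf9 at chr14:55578123-55610030. Of those that the results turn on, Stat2 spans chr10:128270559-128292849 on the plus strand, H2-K1 chr17:33996017-34000347 on the minus strand, Ifnar1 chr16:91485238-91507441 on the plus strand, Usp18 chr6:121245906-121270917 on the plus strand and Socs3 chr11:117966079-117970047 on the minus strand. A value is for the whole gene, with its exons and, where the annotation has such transcripts, retained introns.

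The members covered more than 2 orders of magnitude in level, from Psme1 with a mean of 126 TPM over the 15 libraries and Psme2 with 123 TPM down to Ifit1 with 0.880 TPM and Psmb9 with 0.843 TPM. Psme1 and Psme2 encode the subunits of the PA28 activator of the proteasome, and 66.2% of the 31-base stretches of the main Psme2 transcript are shared with Psme2b, so its level is uncertain. Next came B2m, the light chain of every class I molecule, with 74.0 TPM (range 47.0 to 117), Ifitm2 with 64.2 TPM, Irf3 with 58.6 TPM and Ifngr2 with 56.8 TPM. The heavy chains lay well under B2m, at 24.5 TPM for H2-D1, 8.44 TPM for H2-K1 and 6.35 TPM for H2-T23. The peptide transporter genes Tap1 and Tap2 had means of 1.55 and 1.45 TPM, and the catalytic immunoproteasome subunits Psmb8 and Psmb9 had 1.82 and 0.843 TPM, in contrast to the 13.7 TPM of Tapbp, the tapasin that ties the transporter to class I. All 4 receptor chains were present at between 6.27 TPM (Ifngr1) and 56.8 TPM, with Ifnar1 at 35.1 TPM and Ifnar2 at 24.4 TPM. Of the effectors, Isg15, a ubiquitin-like modifier, had 5.33 TPM, while Ifit3 had 2.09 TPM.

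**Figure D1:**
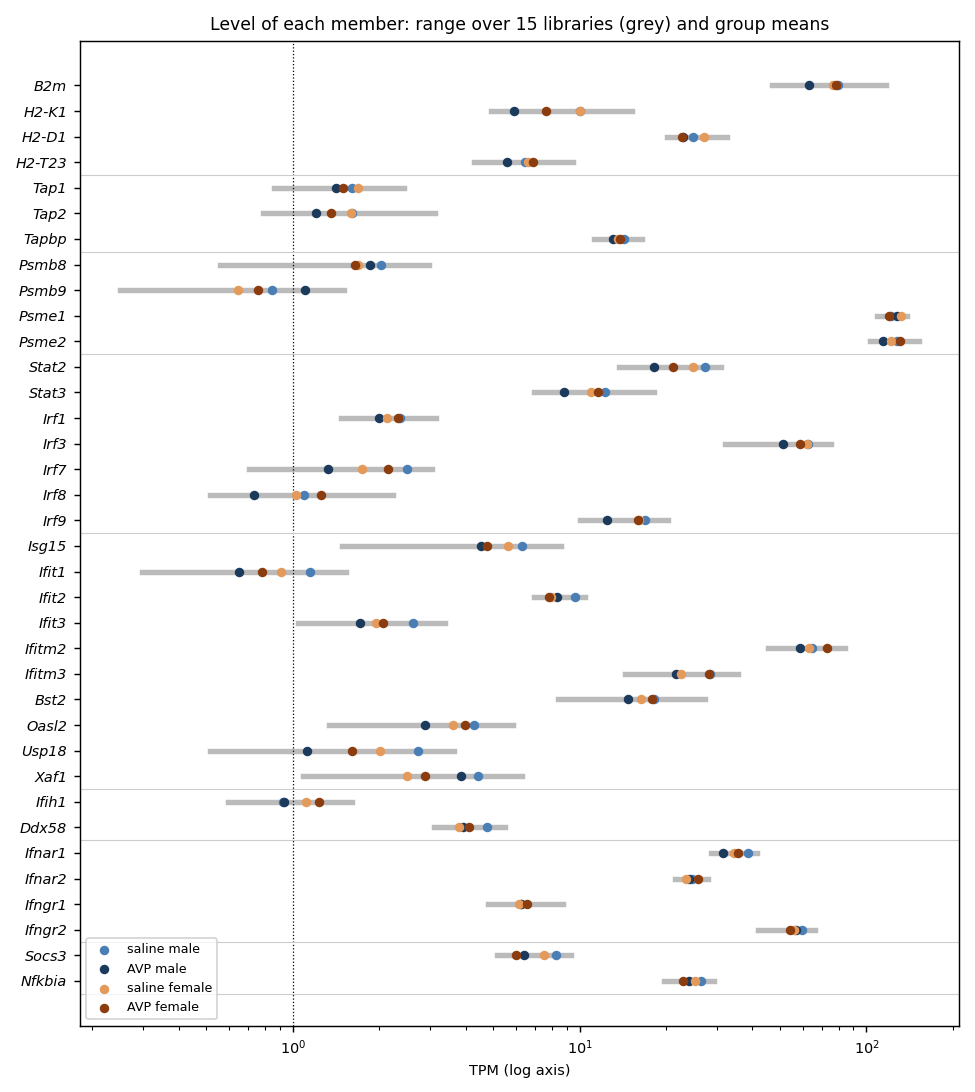
Level of each of the 36 members in TPM on a log axis, grouped by role, with the grey line giving the range over the 15 libraries and the points the group means. The dotted line marks 1 TPM, and the group means of a member lie close together beside the distance between members, which runs from 126 TPM for Psme1 to 0.843 TPM for Psmb9.

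The interferons themselves were at or near 0. Of 21 interferon genes with values, 19 were at 0 in every library and none reached 1 TPM. The remaining 2, Ifna2 and Ifnz, named after their values were seen, reached at most 0.0707 TPM.

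In males, where both groups had 4 libraries, the comparison asked whether maternal AVP left a difference in the members. Genes that reached 1 TPM in 50% or more of the 8 libraries were tested with limma on log2(TPM + 0.5), a scale that understates the change of low genes, and p-values were adjusted over all 15271 genes tested. By this test 1 gene in all, 0.00655% of those tested, had an adjusted p under 0.05, and it was not a member. The lowest adjusted p of a member was 0.304. At an unadjusted p under 0.05 there were 5 of 34 members (14.7%), against 13.5% of all genes tested. All 5 were lower after AVP, as were 12.4% of all genes tested. The members' share was thus close to that of all genes. The median log2 difference was -0.19 over the members and -0.10 over all genes tested, and 11.8% of members against 26.4% of all genes lay higher. Median-of-ratios scaling moved the median of all genes from -0.103 to -0.00532 and the share of all genes that lay higher to 48.7%, and under it the members had a median of -0.11 with 5 of 33 higher (15.2%). Under quantile normalization 11 of 34 members (32.4%) and 55.0% of all genes lay higher. Of 32 members tested without the library labelled saline male 3, 28 lay lower and 3 (9.38%, against 8.14% of all genes) had an unadjusted p under 0.05, namely Stat2, Ifnar1 and Socs3.

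Groups that did not overlap, with every AVP male under every saline male, were seen for 2 of the 34 tested members, Stat2 and Ifnar1, against 6.54% of all genes tested in males. The same held for Irf8, which was under the filter on low values. In protein-coding transcripts alone, the male groups overlapped for Stat2, Ifnar1 and Irf8. In females 0 members had groups that did not overlap, against 2.77% of genes tested with AVP lower and 2.78% with AVP higher.

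Among the signalling and transcription factors, Stat2 is a partner of Irf9 in the factor that binds the ISRE. Its levels were 16.98, 13.7, 20.9 and 21.1 TPM in the 4 AVP males and 30.98, 22.99, 30.05 and 25.2 TPM in the 4 saline males. In females they were 15.1, 30.7 and 17.4 TPM after AVP and 28.9, 20.2, 20.7 and 29.5 TPM after saline. The males did not overlap, whereas AVP female 2 had the highest female level and the other AVP females the lowest. The log2 difference was -0.59 ± 0.16 (SE) in males (95% interval -0.94 to -0.23, limma adjusted p = 0.304), and the exact permutation test gave p = 0.0286, the smallest that 4 against 4 allow. It was -0.27 ± 0.26 in females (limma adjusted p = 0.999) and -0.44 ± 0.16 over both sexes (limma adjusted p = 0.462, and 0.0562 without AVP female 2). In males it stayed under an unadjusted p of 0.05 without any 1 library, between -0.66 and -0.46.

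The Stat2 signal came in part from transcripts that keep an intron, and 55.9% of its TPM was in protein-coding transcripts. Retained-intron transcripts of Stat2 summed to 7.56, 3.54, 7.88 and 9.77 TPM in AVP males and to 15.8, 10.99, 12.1 and 11.5 TPM in saline males. Protein-coding transcripts alone summed to 9.42, 10.1, 13.01 and 11.4 TPM and to 15.2, 12, 17.9 and 13.7 TPM, so the 2 groups overlapped there, and the log2 difference was -0.40 (limma unadjusted p = 0.0147). Over the whole table, retained-intron transcripts took 3.65%, 3.51%, 5.48% and 5.93% of TPM in AVP males and 6.21%, 5.52%, 6.54% and 5.52% in saline males, and 3.90%, 6.78% and 5.19% in AVP females and 5.35%, 5.67%, 4.29% and 6.49% in saline females. AVP male 1, AVP male 2 and AVP female 1 had the lowest shares and AVP female 2 the highest, and the part of this share in the Stat2 result was not tested.

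Irf9, the DNA-binding part of the same complex, was at 11.7, 10.01, 15.4 and 12.8 TPM in AVP males and at 18.9, 15.6, 20.3 and 13.04 TPM in saline males. Only AVP male 3 reached into the saline range, above saline male 4. The log2 difference was -0.42 ± 0.17 in males (limma adjusted p = 0.334, exact permutation p = 0.0571) and -0.01 ± 0.18 in females. With single libraries left out the male difference ran from -0.54 to -0.33 and kept an unadjusted p under 0.05 in 4 of 8 fits, but not without the library labelled saline male 3. It also lost that under both other scalings. Irf8, a factor of myeloid cells that microglia express, was at 0.794, 0.818, 0.514 and 0.791 TPM in AVP males and at 0.939, 1.44, 1.06 and 0.954 TPM in saline males. These groups did not overlap (exact permutation p = 0.0286, unadjusted and the smallest possible), but 1.01 TPM on average is close to the filter and the gene was in none of the main fits. In protein-coding transcripts alone they overlapped, with saline male 4 at 0.740 TPM under AVP male 1 at 0.794 TPM and AVP male 2 at 0.804 TPM. In females Irf8 ran from 0.724 to 2.23 TPM after AVP and from 0.611 to 1.63 TPM after saline (exact permutation p = 0.686).

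Irf7, which amplifies the type I response and is itself an interferon target, was at 1.23, 2.18, 1.2 and 0.706 TPM in AVP males and at 3.02, 2.84, 3.05 and 1.07 TPM in saline males. Saline male 4 lay within the AVP range. The log2 difference was -0.70 ± 0.33 in males (limma adjusted p = 0.390, exact permutation p = 0.114) and 0.33 ± 0.33 in females, where the means were 2.15 ± 0.259 TPM (SD, n = 3) after AVP and 1.74 ± 0.882 TPM (SD, n = 4) after saline. Irf1, a GAS-driven activator, differed by -0.19 ± 0.21 in males (limma adjusted p = 0.712) and by 0.11 ± 0.20 in females. Stat3, which carries cytokine signals, and Irf3, the factor that RNA sensing switches on, had log2 differences of -0.40 and -0.32 in males, with limma adjusted p of 0.451 and 0.537. Only 31.1% of Irf3 TPM was in protein-coding transcripts.

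**Figure D2:**
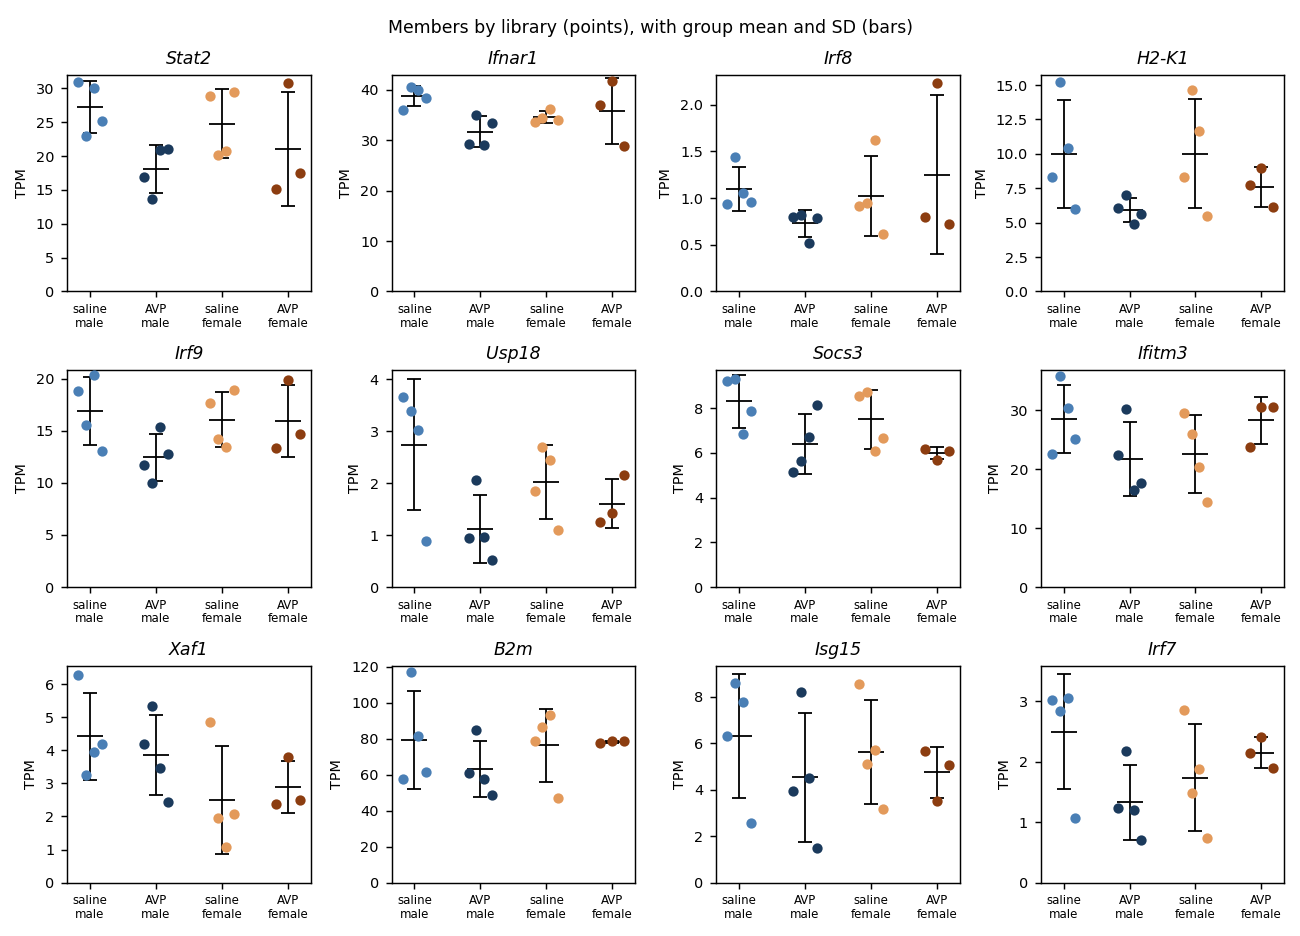
TPM in each library (points) with the group mean and SD (bars) for 12 members in the 4 groups, each panel with its own axis. The AVP males lie under all saline males for Stat2, Ifnar1 and Irf8, and the groups overlap in every other panel for males and in all panels for females.

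Of the 4 receptor chains, Ifnar1 was at 29.2, 34.98, 28.9 and 33.5 TPM in AVP males and at 35.99, 40.6, 40.0 and 38.4 TPM in saline males. The groups did not overlap, but the nearest values were 34.98 and 35.99 TPM. In protein-coding transcripts alone they overlapped, with AVP male 2 at 31.6 TPM above saline male 1 at 30.95 TPM. The log2 difference in males was -0.29 ± 0.08 (95% interval -0.48 to -0.10, limma adjusted p = 0.304, exact permutation p = 0.0286). It kept an unadjusted p under 0.05 without any 1 library, but under quantile normalization it was -0.17, with a limma unadjusted p of 0.0795. In females Ifnar1 was at 37.0, 41.6 and 28.8 TPM after AVP and at 33.5, 34.4, 36.2 and 34.0 TPM after saline, a log2 difference of 0.04 ± 0.13. Ifngr1, Ifngr2 and Ifnar2 had log2 differences of 0.02 ± 0.18, -0.08 ± 0.10 and -0.05 ± 0.09 in males, none with a limma adjusted p under 0.757.

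Of the class I chains, H2-K1, a classical heavy chain, was at 6.06, 6.99, 4.91 and 5.62 TPM in AVP males and at 8.31, 15.2, 10.4 and 6.01 TPM in saline males. Saline male 4 lay within the AVP range and saline male 2 far above the rest. The log2 difference was -0.65 ± 0.25 in males (95% interval -1.21 to -0.09, limma adjusted p = 0.328, exact permutation p = 0.0857), -0.31 ± 0.31 in females and -0.49 ± 0.21 over both sexes (limma adjusted p = 0.469). With single libraries left out the male difference ran from -0.86 to -0.43 and kept an unadjusted p under 0.05 in 4 of 8 fits, and that over both sexes in 8 of 15. Both lost it without the library labelled saline male 3, under quantile normalization and with protein-coding transcripts alone. H2-D1, the other classical chain, differed by -0.11 ± 0.14 in males (limma adjusted p = 0.773) and by -0.24 ± 0.14 in females. B2m was at 63.1 ± 15.4 TPM in AVP males and 79.3 ± 27.2 TPM in saline males (SD, n = 4 each), a log2 difference of -0.30 ± 0.24 (limma adjusted p = 0.584), and at 78.3 ± 0.590 TPM (n = 3) and 76.2 ± 20.4 TPM (n = 4) in females. H2-T23, a non-classical chain, differed by -0.18 ± 0.23 in males and by 0.08 ± 0.22 in females. Between H2-K1 and H2-D1 reads can be split, since 16.9% of the 31-base stretches of H2-K1 occur in H2-D1, and 48.4% of those of H2-T23 occur in other genes. B2m shares none.

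The peptide transport genes showed smaller differences. Tap1 differed by -0.12 ± 0.25 in males (limma adjusted p = 0.855) and by -0.11 ± 0.24 in females. Tap2 and Tapbp lay between -0.19 and 0.02 in both sexes. Of the immunoproteasome members, Psmb8 differed by -0.09 ± 0.25 in males and by 0.06 ± 0.37 in females, with limma adjusted p of 0.898 and 0.999. Psme1 and Psme2 had log2 differences of 0.08 ± 0.08 and -0.15 ± 0.10 in males. Psmb9, tested in males only of the 2 sexes, differed by 0.35 ± 0.31, the highest value of any member in males, with a saline range of 0.250 to 1.49 TPM that enclosed the AVP range of 1.01 to 1.21 TPM.

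All 9 tested antiviral effectors lay lower after AVP in males, with a median log2 difference of -0.40, while 6 of the 9 lay higher in females, with a median of 0.20. Without the library labelled saline male 3, 8 were tested in males and 8 lay lower, with a median of -0.30. Over all genes tested the medians were -0.10 in males, -0.085 in males without that library and -0.05 in females. The male median of all genes moved to -0.0053 under median-of-ratios scaling and to 0.0196 under quantile normalization. Usp18, which removes Isg15 from proteins and blocks the type I receptor, was at 0.938, 2.06, 0.957 and 0.512 TPM in AVP males and at 3.65, 3.39, 3.02 and 0.883 TPM in saline males. The first 3 saline males lay above every AVP male and saline male 4 lay among them. In males only these 3 and AVP male 2 reached 1 TPM, so the gene met the filter mainly through saline. Its log2 difference was -0.96 ± 0.40 in males (95% interval -1.88 to -0.05, limma adjusted p = 0.348, exact permutation p = 0.114), -0.23 ± 0.29 in females and -0.63 ± 0.27 over both sexes (limma adjusted p = 0.469). Without the library labelled saline male 3 it fell under the filter in males and had no fit. In males it could be fitted with 4 of the 8 libraries left out in turn, between -1.33 and -0.77, and kept an unadjusted p under 0.05 in 1 of these fits, while over both sexes it kept it in 6 of 15. Both lost it under either other scaling, and the male difference also lost it with no filter on low values. Isg15 was at 3.95, 8.20, 4.48 and 1.48 TPM in AVP males and at 6.29, 8.59, 7.75 and 2.55 TPM in saline males. The groups overlapped widely, and the log2 difference was -0.51 ± 0.47 in males (limma adjusted p = 0.651) and -0.17 ± 0.31 in females.

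Ifitm3, a membrane protein that blocks virus entry, was at 21.7 ± 6.23 TPM in AVP males and 28.5 ± 5.82 TPM in saline males (SD, n = 4 each). In females it was at 28.3 ± 3.96 TPM (n = 3) after AVP and 22.6 ± 6.63 TPM (n = 4) after saline. The log2 differences were thus of opposite sign, -0.40 ± 0.21 and 0.36 ± 0.24, with limma adjusted p of 0.415 and 0.999. Bst2, tetherin, which holds budding virus at the cell surface, differed by -0.29 ± 0.30 in males (limma adjusted p = 0.690) and by 0.20 ± 0.31 in females. Ifit1, which binds foreign RNA, averaged 0.648 TPM in AVP males and 1.15 TPM in saline males and was under the filter in each main fit (exact permutation p = 0.200 in males and 0.771 in females). Ifit2, Ifit3, Ifitm2, Oasl2 and Xaf1 had log2 differences between -0.53 and -0.12 in males and between -0.02 and 0.30 in females, all with a limma adjusted p of 0.459 or more. For Ifit3, 61.8% of the 31-base stretches of the main transcript are shared with Ifit3b, and for Ifitm2 55.5% are shared with other genes, so reads of these members may have been split. The cytosolic RNA sensors Ddx58 (RIG-I) and Ifih1 (MDA5) differed by -0.24 ± 0.18 and 0.01 ± 0.22 in males and by 0.10 ± 0.24 and 0.08 ± 0.24 in females.

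Socs3, a STAT-induced inhibitor of cytokine receptors, had the smallest p of any member over both sexes. It was at 5.14, 5.62, 6.70 and 8.13 TPM in AVP males, 9.19, 9.30, 6.83 and 7.89 TPM in saline males, 6.19, 5.66 and 6.10 TPM in AVP females and 8.52, 8.71, 6.09 and 6.68 TPM in saline females. The AVP females lay in a narrow range at the lower edge of the saline females. The log2 difference was -0.33 ± 0.11 over both sexes (95% interval -0.57 to -0.09, limma adjusted p = 0.462), -0.36 ± 0.16 in males and -0.29 ± 0.17 in females, the same direction in each. Over both sexes an unadjusted p under 0.05 was kept without any 1 library but not with protein-coding transcripts alone (limma unadjusted p = 0.0588). Nfkbia, the NF-kappaB inhibitor, differed by -0.13 ± 0.09 in males and -0.14 ± 0.17 in females.

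**Figure D3:**
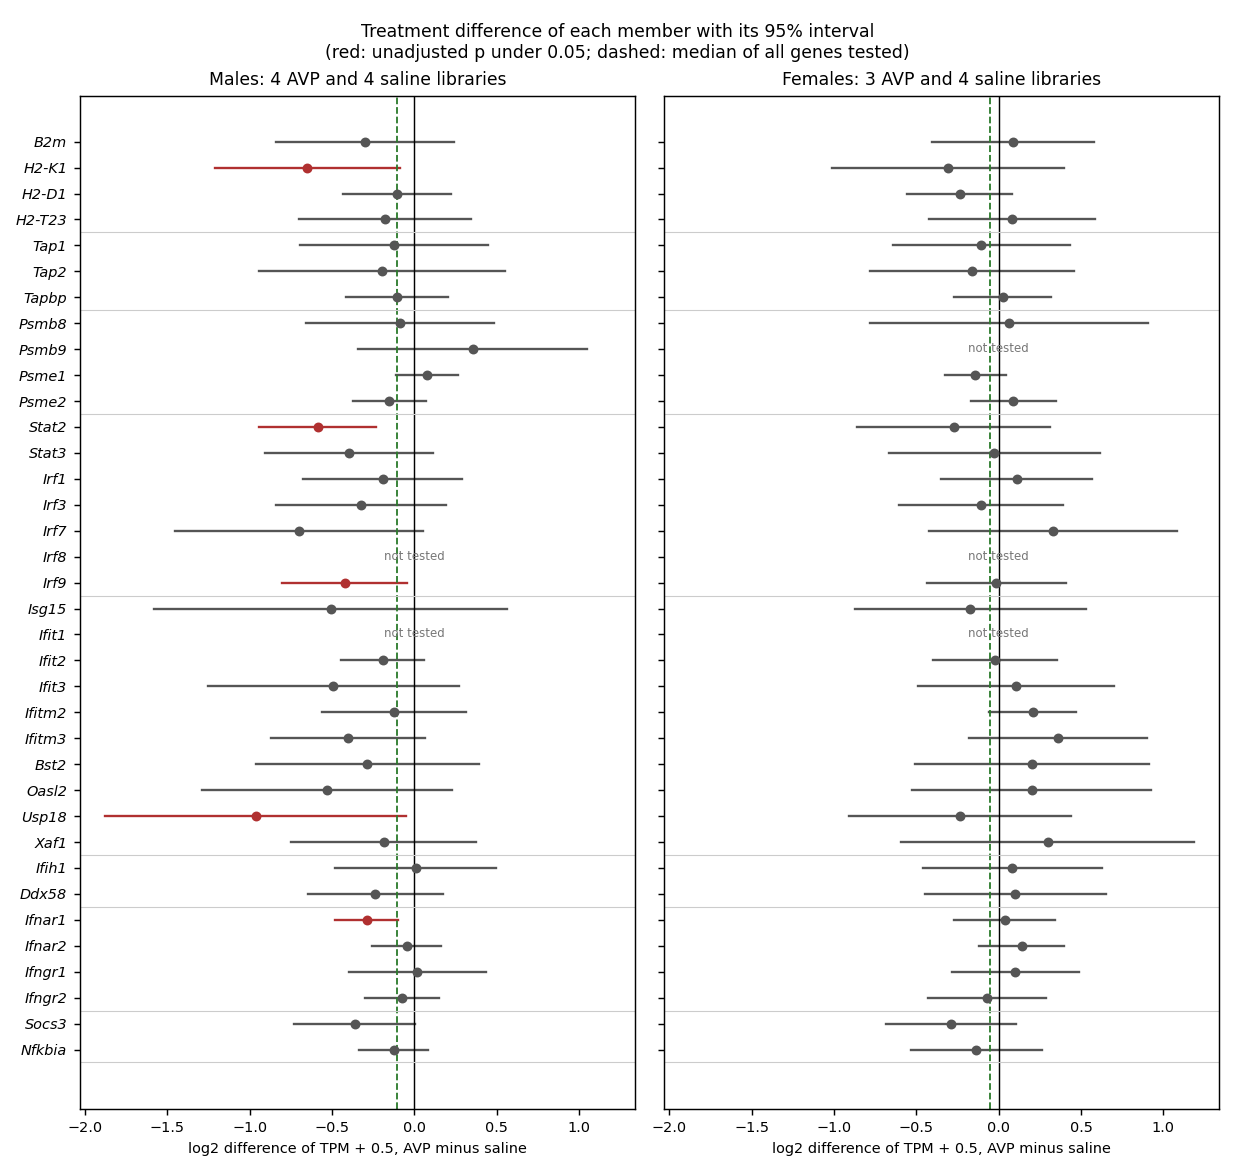
Log2 difference (AVP minus saline, on log2(TPM + 0.5)) of each tested member with its 95% interval, males on the left and females on the right, with red for an unadjusted p under 0.05 and the dashed line at the median of all genes tested (-0.103 in males and -0.0509 in females). All 5 red members are in males and to the left of 0, and most intervals cross 0 in both sexes.

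In females, 0 of 15132 genes tested (0%) had a limma adjusted p under 0.05, and 683 genes, 4.51%, had an unadjusted p under 0.05. The members had 0 of either. Their median log2 difference was 0.04 against -0.05 for all genes, with 54.5% against 36.9% lying higher, and median-of-ratios scaling moved these shares to 63.6% and 45.2%. The markers of some other cell types moved beside this. The endothelial markers summed to 223 to 239 TPM in AVP females and to 140 to 216 TPM in saline females, and the border macrophage markers to 63.5 to 72.4 TPM and 31.9 to 43.4 TPM. Meningeal fibroblast markers summed to 186 to 265 TPM and 119 to 140 TPM, and mural cell markers to 92.2 to 98.5 TPM and 63.8 to 82.8 TPM. All 10 endothelial, 7 of 8 border macrophage, 8 of 8 meningeal fibroblast and 7 of 7 mural cell markers had a mean of at least 1 TPM in AVP females. None of these 4 sums overlapped between the female groups, all were higher after AVP, and their part in the members' values was not tested. The highest genes weigh most in such sums, and not every marker followed them. Ly6c1, Slco1c1, Cbr2, Pdgfra and Cspg4 had lower means in AVP females than in saline females, and the other markers of these lists had higher ones. Microglial markers summed to 113 to 123 TPM in AVP females and to 80.7 to 135 TPM in saline females, so their ranges overlapped. The choroid plexus sums (26.6 to 2273 TPM in AVP females and 7.94 to 957 TPM in saline females) overlapped too. So did the red blood cell sums and the lymphocyte and neutrophil sums.

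Over both sexes, with sex as a term, 0 genes of 15078 (0%) passed the limma threshold. Those at an unadjusted p under 0.05 made up 10.4% of genes tested, and those of them that were lower made up 9.69%. Of the members 4 of 34 (11.8%) had an unadjusted p under 0.05, all lower: Stat2, Socs3, H2-K1 and Usp18. The median log2 difference was -0.11 over the members and -0.08 over all genes, and 17.6% against 26.1% lay higher. Scaling changed the direction for many of these small differences, with 13 of 33 members (39.4%) higher under median-of-ratios and 15 of 34 (44.1%) under quantile normalization, where all genes were at 47.3% and 52.1%. Leaving out the library labelled saline male 3 left Stat2 and Socs3, 2 members (5.88%), at an unadjusted p under 0.05, against 7.33% of all genes.

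The interaction asked whether the AVP difference in females minus that in males departed from 0. No gene passed the limma threshold (0%), 4.14% of genes had an unadjusted p under 0.05 and 2.52% had one with a positive interaction. Of the members 2 of 34 (5.88%) did, Ifitm3 with 0.76 ± 0.34 and Ifnar1 with 0.33 ± 0.15, both with a limma adjusted p of 0.896. With single libraries left out Ifitm3 kept an unadjusted p under 0.05 in 7 of 15 fits (0.57 to 0.93) and Ifnar1 in 5 of 15 (0.21 to 0.47). Ifitm3 lost it under both other scalings, and Ifnar1 with the filter at 5 TPM, without the trend, with protein-coding transcripts alone and with the S number term. A positive interaction was seen in 30 of 34 members (88.2%) and in 61.2% of all genes, with medians of 0.28 and 0.07. All 9 effectors, all 6 signalling factors and all 4 receptors were among them. Under median-of-ratios scaling the shares were 78.8% and 50.1%, and under quantile normalization 70.6% and 48.3%. Irf7 had the highest interaction of any member, 1.03 ± 0.49 (limma adjusted p = 0.896). Without the library labelled saline male 3, 28 of 34 (82.4%) were positive, against 58.0% of all genes, and Psme1 alone had an unadjusted p under 0.05, with a negative interaction. Of the marker lists, only the 4 whose sums did not overlap between the female groups are given here. They were picked by a female difference that is itself part of the interaction. The choice thus favoured positive values, and no conclusion is drawn from them. Endothelial markers were positive in 10 of 10 genes, border macrophage markers in 6 of 6, meningeal fibroblast markers in 8 of 8 and mural cell markers in 6 of 7, with median interactions of 0.50, 0.83, 0.59 and 0.41, and their part in the members' pattern was not tested.

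Between females and males, 0 genes (0%) passed the limma threshold with all libraries under their labels, and 7 passed without the library labelled saline male 3, none of them a member. An unadjusted p under 0.05 was seen for 1.39% of genes and for 1 of 34 members, Xaf1, a pro-apoptotic interferon target. Xaf1 had means of 3.86 and 4.43 TPM in AVP and saline males and 2.88 and 2.49 TPM in AVP and saline females, a log2 difference of -0.61 ± 0.24 (limma adjusted p = 1.0). It was -0.60 without the library labelled saline male 3. In protein-coding transcripts alone, which held 68.9% of its TPM, it was -0.24 (limma unadjusted p = 0.311).

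The members also varied between libraries of the same group. Saline male 2 held the highest value for 14 of the 34 members with a mean of at least 1 TPM and lay above the gene's mean for 33 of them, with a median deviation of 0.39 on the log2 scale. Saline male 4, of the same group, lay above the mean for 9 members, with a median of -0.21. Among the 9 effectors of that set the median deviation ran from 0.65 in saline male 2 to -0.56 in saline female 4, and AVP male 2 stood at 0.32 against -0.51 in AVP male 4. Saline male 2 also had the highest sum of microglial markers, 178 TPM, and of endothelial markers, 259 TPM, and saline female 4 the lowest, 80.7 and 140 TPM. AVP male 2 had the next highest microglial sum, 141 TPM. Saline male 1 went the other way, with an effector deviation of 0.33 beside the next lowest sums, 97.2 TPM for microglia and 155 TPM for endothelium. Within males the summed ranges overlapped between treatments, at 101 to 141 and 97.2 to 178 TPM for microglia and 184 to 212 and 155 to 259 TPM for endothelium. Of these male marker genes 0 of 12 microglial and 2 of 10 endothelial ones had an unadjusted p under 0.05, both lower. Of all genes tested in males 13.5% had one, and 12.4% had one and were lower. The part of these cell types in the members' values was not tested.

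**Figure D4:**
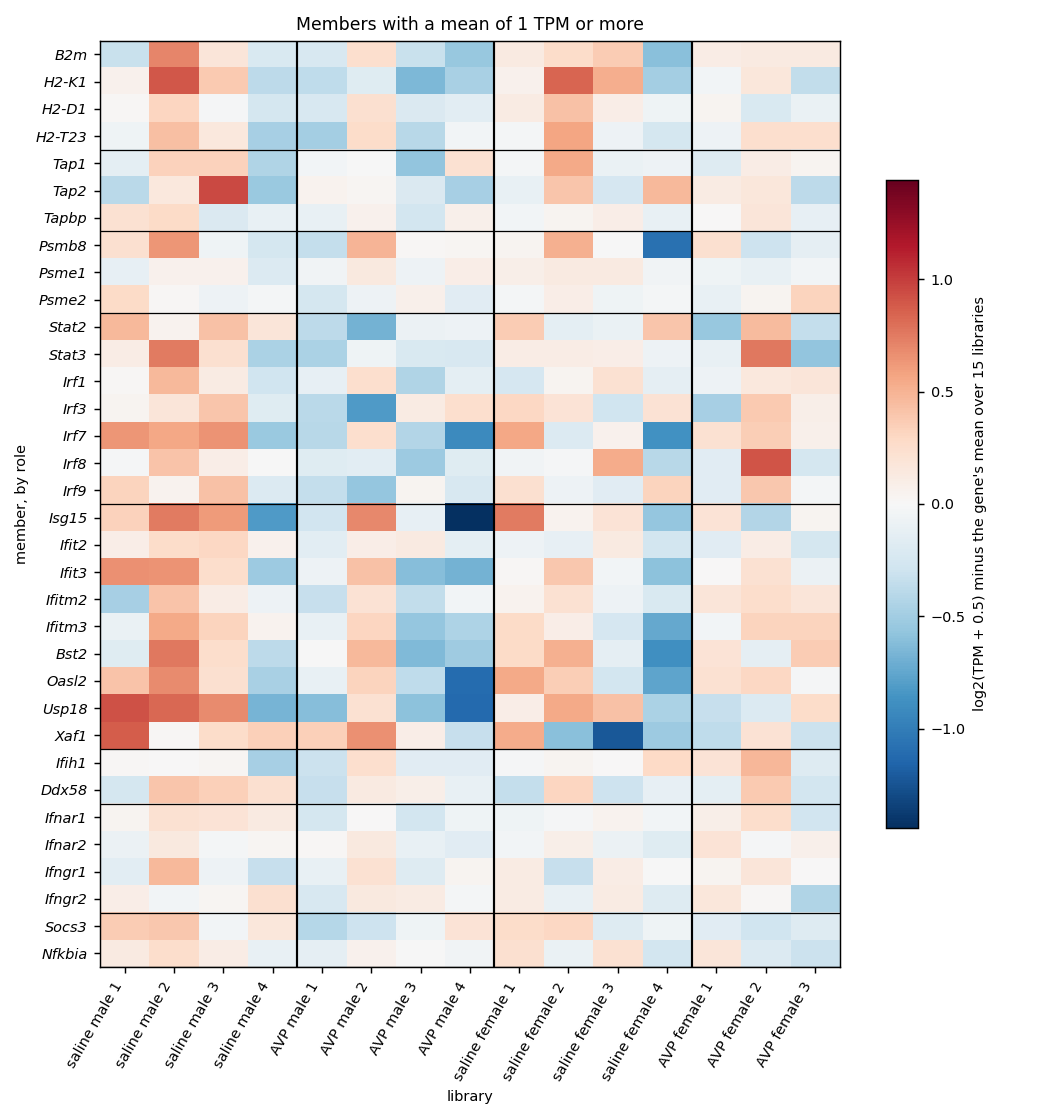
Deviation of log2(TPM + 0.5) from the gene's mean for the 34 members with a mean of at least 1 TPM (rows, by role) in the 15 libraries (columns, by group), red for higher and blue for lower. Saline male 2 is red for 33 of 34 members, and saline male 4 and saline female 4 are mostly blue within their groups.

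The other genes of the pathway were taken from lists of 181 genes, chosen by name. Of the 100 that were tested in males 0 passed the limma threshold, 88 lay lower with a median log2 difference of -0.21, and 11 had an unadjusted p under 0.05, all lower, a share close to the 12.4% of all genes. The 3 with the smallest p were Adar, which edits double-stranded RNA, with -0.32, Parp12, an interferon-induced ADP-ribosyltransferase, with -0.65, and Tyk2, the kinase on the Ifnar1 chain, with -0.43, each with a limma adjusted p of 0.304. In females 1 of 102 pathway genes had an unadjusted p under 0.05 (4.51% of all genes did), Ifitm1 with 0.61 ± 0.19. Over both sexes 9 of 99 did, against 10.4% of all genes, all lower, with Ptpn1 (-0.16), Parp12 (-0.37) and Cish (-0.25) first. In the interaction 6 of 99 did, against 4.14% of all genes, all positive, and 80 of the 99 were positive, where 61.2% of all genes were, Mr1 (0.93 ± 0.33) and Parp12 (0.62 ± 0.24) among them. Between the sexes 0 of 99 did, against 1.39% of all genes. The unadjusted counts of pathway genes, with the library labelled saline male 3 left out, were 5 of 97 in males (4 lower), 5 of 99 over both sexes, 3 of 99 in the interaction and 1 of 99 between the sexes, against 8.14%, 7.33%, 2.90% and 1.38% of all genes, and 81 of the 97 lay lower in males and 74 of the 99 were positive in the interaction. Most of all genes tested also lay lower in males, with a median of -0.10 with all libraries and -0.085 without that one.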

How the data were processed

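The authors trimmed reads with Trim Galore 0.4.1, checked them with FastQC 0.5.2 and quantified transcripts with kallisto 0.43.1 on GENCODE transcripts of GRCm38, ahead of tests in sleuth 0.29.0. The deposited values are TPM per transcript (133849 transcripts in 15 libraries). The unit is inferred, since each library sums to 1000000. The read depth of each library is unknown.

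Transcript TPM were summed to 53337 genes, leaving out 404 transcripts with no gene in the annotation used here (0.154% to 0.199% of TPM). Genes that reached 1 TPM in 50% or more of the libraries compared were tested with limma 3.58.1 (R 4.3.3, two-sided, trend of variance on mean) on log2(TPM + 0.5), with Benjamini-Hochberg adjustment over all genes tested and a threshold of 0.05. The script was tested on simulated data. Single members were also tested by two-sided exact permutation over libraries within a sex. Shared sequence between genes was counted in stretches of 31 bases. Alternatives covered the pseudocount, filter, scaling, trend, transcript types, the S numbers in the labels as a further term (S8 or lower against higher), a joint fit of all libraries, an adjusted threshold of 0.1, and each library left out.

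The members and gene lists were chosen with earlier results of these data known. Members with an unadjusted p under 0.05 or groups that did not overlap, and 16 named by symbol in the analysis plan, have full statistics. Other pathway genes are named by the 3 smallest p in a comparison, with the exception of items not reported here. Groups come from the labels, and 0 value columns lacked a sample.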

Additional observations from a re-analysis of the deposited data

Results flagged for a closer look

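Of 108 member-by-group sets of 4 libraries, 7 held a library whose gap to its nearest neighbour, as a share of the group's range, was above Dixon's 95% critical value, where chance gives about 1 set in 20. Saline male 4 was low for Irf7 (gap share 0.896, 1.07 TPM against 2.84 to 3.05 TPM in the other saline males) and for Ifih1 (0.945, 0.593 TPM against 1.02 to 1.05 TPM). Saline female 2 was high for Tap1 (0.909, 2.44 TPM against 1.38 to 1.48 TPM) and for Psmb9 (0.867, 1.05 TPM against 0.471 to 0.548 TPM), neighbouring genes of the class I pathway. AVP male 2 was high for H2-D1 (0.854, 28.6 TPM against 20.6 to 21.8 TPM), AVP male 3 was low for Irf8 (0.912, 0.514 TPM against 0.791 to 0.818 TPM), and saline female 4 was low for Stat3 (0.937, 9.97 TPM against 11.2 to 11.3 TPM).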

How the results depend on the processing

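No member and no other pathway gene had an adjusted p under 0.05 in any of the 5 comparisons under any alternative run. None was under 0.1 with all libraries, but without AVP female 2 the limma adjusted p of Stat2 over both sexes was 0.0562, and some pathway genes lay between that and 0.1. Counts of members at an unadjusted p under 0.05 moved more. In males there were 5, against 1 under quantile normalization and between 3 and 9 with single libraries left out, 9 without saline male 4 and 3 without AVP male 1, AVP male 3, saline male 2 or saline male 3. Over all genes the same male count was 2057, against 1528 under quantile normalization, 1878 without saline male 4 and 1225 to 2960 over all single libraries left out (1233, 2218, 1967 and 1225 for the 4 just named). Over both sexes there were 4, against 2 under quantile normalization, with protein-coding transcripts alone or with the filter at 5 TPM in every library, and between 2 and 7 with single libraries left out, 7 without AVP female 2. Over all genes that count was 1564, against 1196, 1206 and 1287 under those 3 alternatives in turn and 936 to 3638 with single libraries left out, 3638 without AVP female 2. In females there were 0, against 1 under quantile normalization and up to 2 with single libraries left out (2 without AVP female 2), where all genes had 683, 728 and 433 to 1605 (1605 without AVP female 2). For the interaction there were 2, against 1 to 3 and, with single libraries left out, 0 to 3 (0 without AVP female 2). All genes had 624, against 381 to 1351 over the alternatives and 403 to 1216 with single libraries left out (583 without AVP female 2). Between the sexes there was 1, against 0 to 3 over the alternatives and 0 to 2 with single libraries left out. All genes had 210 there, against 101 to 850 and 169 to 607 in turn. The number of members lying higher in males, 4, ranged from 1 to 11 over the alternatives and from 2 to 6 with single libraries left out. Over both sexes, 6 became 13 under median-of-ratios scaling and 15 under quantile normalization, and 3 to 10 with single libraries left out. In females 18 became 12 to 22 and between the sexes 22 became 12 to 25 with single libraries left out. With the filter at 5 TPM in every library, which tests fewer members, the numbers lying higher were 1 in males, 9 in females, 2 over both sexes, 15 for the interaction and 11 between the sexes. Over all genes in males, the number past the adjusted threshold, 1, ranged from 0 to 6. No paired analysis was possible because the labels give no numbers or litters that match samples across groups. With 3 or 4 samples a group, the exact permutation test cannot go below 0.0286 in either sex. The read depth of each library is unknown, and members near 1 TPM (Psmb9, Ifit1, Irf8, Ifih1) lie at the filter.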
